A study of Homo sapiens with 6 samples.

Results

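Matrix metalloproteinases (MMPs) and their tissue inhibitors (TIMPs) were followed after knockdown of TAZ in HFL-1, a fibroblast line from human fetal lung. The genes were taken by symbol: MMP1, MMP2, MMP3, MMP10, MMP11, MMP14, MMP16, MMP19, TIMP2 and TIMP3, 10 of the 23355 gene entries of the count table. All 10 had entries and all 10 passed the filter on low counts, which left 14053 genes for testing. The cells had been transfected, with Lipofectamine RNAiMAX in every group, with a non-targeting siRNA (siNTC) or with either of 2 siRNAs against TAZ (siTAZ #1 and siTAZ #2). Total RNA was taken 48 h later, and 2 libraries per group, 6 in all, were sequenced with an Ion Proton. The submitters call these biological replicates. TAZ, encoded by WWTR1, is a transcriptional coactivator of the Hippo pathway. The comparison asks which MMP and TIMP transcripts change in lung fibroblasts when its level is lowered.

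MMPs are zinc-dependent proteases that cut collagens, proteoglycans and other proteins of the extracellular matrix. Most are made as inactive proenzymes, and many are secreted, while the membrane-type MMPs stay anchored at the cell surface. TIMPs bind the active enzymes and block them, and in lung fibroblasts the enzymes and inhibitors together set how fast matrix is broken down.

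The counts of a library summed to between 15648055 and 32078188. Levels are given in CPM, read counts rescaled by TMM so that libraries of unequal depth can be compared. WWTR1 was at 132 and 131 CPM in the siNTC libraries, at 26.4 and 28.4 CPM with siTAZ #1, and at 46.1 and 43.1 CPM with siTAZ #2. Knockdown amounted to a log2 change of -2.26 under siTAZ #1 (standard error 0.10, FDR 0.00062) and of -1.56 under siTAZ #2 (standard error 0.10, FDR 0.00068), where FDR is the p-value of edgeR's quasi-likelihood test adjusted over all genes tested. The siRNAs also differed from each other, with siTAZ #1 the lower by -0.70 (FDR 0.0050), a call that edgeR's exact test did not make (FDR 0.236). The 10 fibroblast markers summed to 43000 to 43090 CPM with siNTC, 31480 to 33800 CPM with siTAZ #1 and 33350 to 35110 CPM with siTAZ #2. They did not move together: 2 rose and 4 fell with siTAZ #1, and 2 rose and 6 fell with siTAZ #2. Over all genes tested, 10.8% were called higher and 9.78% lower with siTAZ #1, and 14.1% higher and 14.4% lower with siTAZ #2. COL1A2 fell with both siRNAs, from a mean of 12440 CPM with siNTC to 6173 and 7282 CPM, while PDGFRA rose with siTAZ #1 (log2 1.72, FDR 0.00084), PDGFRB with both (log2 0.39, FDR 0.0201, and 0.54, FDR 0.0051) and THY1 with siTAZ #2 (log2 0.50, FDR 0.0105). The 6 epithelial markers summed to at most 3.41 CPM in any library, the 4 endothelial markers to at most 3.50 CPM, and PTPRC, CD14, LYZ and CD3E, the immune markers other than CD68, to at most 0.664 CPM. CD68 was at 68.7 to 75.4 CPM with siNTC and siTAZ #1 and at 37.8 and 48.3 CPM with siTAZ #2. In replicate 2 of siTAZ #1, counts were nearly missing between RANGAP1 on chromosome 22 and the end of Y (0.248% of its counts, against 3.58% to 3.75% in the other libraries), which took in 577 of the genes tested but none of the 10 genes described here. The common dispersion was 0.0807 with these genes fitted and 0.0164 when they were left out.

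Promoter windows are shown because several of these genes moved together or in opposite directions, so that their start sites can be compared. The RefSeq table used (GRCh38.p14) held entries for 4 of the 10 genes, and the 250 bases before the start site are given 5' to 3' on the strand of the gene. They are chr11:102780629-102780878 on the minus strand for MMP10, chr22:23772599-23772848 on the plus strand for MMP11, chr14:22836335-22836584 on the plus strand for MMP14 and chr22:32801455-32801704 on the plus strand for TIMP3. Capitals mark matches to 4 motifs, on either strand. The AP-1 motif was searched as TGANTCA. For TEAD factors, the partners of TAZ on DNA, the letters were CATTCC. The TATA box was searched as TATAAA. For the GC box the letters were GGGCGG, and no match overlapped another.
MMP10: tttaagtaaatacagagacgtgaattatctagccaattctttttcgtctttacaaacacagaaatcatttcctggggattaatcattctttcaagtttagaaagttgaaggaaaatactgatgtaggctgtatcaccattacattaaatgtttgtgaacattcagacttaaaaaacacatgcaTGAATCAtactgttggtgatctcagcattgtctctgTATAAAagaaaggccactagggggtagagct
MMP11: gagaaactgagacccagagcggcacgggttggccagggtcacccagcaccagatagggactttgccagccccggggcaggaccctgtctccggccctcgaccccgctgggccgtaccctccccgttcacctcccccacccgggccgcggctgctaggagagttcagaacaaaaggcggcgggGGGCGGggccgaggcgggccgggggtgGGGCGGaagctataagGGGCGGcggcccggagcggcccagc
MMP14: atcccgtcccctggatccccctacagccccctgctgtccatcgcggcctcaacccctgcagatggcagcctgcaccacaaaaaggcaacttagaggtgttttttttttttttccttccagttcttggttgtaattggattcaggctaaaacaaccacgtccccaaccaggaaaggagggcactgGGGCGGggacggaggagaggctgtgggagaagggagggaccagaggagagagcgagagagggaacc
TIMP3: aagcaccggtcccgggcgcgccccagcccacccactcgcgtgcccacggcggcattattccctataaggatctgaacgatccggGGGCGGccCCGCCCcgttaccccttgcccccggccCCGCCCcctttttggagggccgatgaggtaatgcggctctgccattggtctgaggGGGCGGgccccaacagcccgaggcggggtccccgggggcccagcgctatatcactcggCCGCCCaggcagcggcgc

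The MMP10 window held an AP-1 match, TGAATCA, 67 to 61 bases before the start, and a TATA box 31 to 26 bases before it. The other 3 windows held GC boxes only, with 3 in MMP11, 1 in MMP14 and 5 in TIMP3. Over the 35116 promoter windows of the same length in the table, 6.57% held the AP-1 letters, 10.7% the TATA box, 42.6% the GC box and 11.9% the TEAD letters. No TEAD letters were found in the 4 windows. A match is a run of letters and not a measured binding site.

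With siTAZ #1, 8 of the 10 genes rose against siNTC, none fell, and MMP2 and MMP19 did not pass the test. Over all genes tested, 20.6% were called in this comparison, 10.8% as higher and 9.78% as lower. With siTAZ #2, 5 rose (MMP2, MMP3, MMP11, MMP14 and TIMP2), TIMP3 fell, and 4 did not pass, beside 28.5% of all genes called, 14.1% higher and 14.4% lower. The median log2 fold change of the 10 genes was 1.27 with siTAZ #1 and 0.73 with siTAZ #2, against 0.02 and 0.01 for all genes tested. Both comparisons use the same siNTC libraries, and the counts of genes called depend on them and on the siTAZ libraries fitted. Without siNTC replicate 1 or replicate 2, 4 and 5 of the 10 genes were called with siTAZ #1 and 3 and 3 with siTAZ #2, while the calls over all genes fell from 2889 to 585 and 556 and from 4004 to 1403 and 1328. In the direct comparison of the siRNAs, 5 of the 10 genes were higher with siTAZ #1, 2 were lower and 3 did not pass, beside 28.6% of all genes called, 15.2% higher and 13.4% lower. Fewer of the 10 genes, and fewer of all genes, were called in it without siTAZ #2 replicate 2. The shares of all genes called also depend on the genes between RANGAP1 and the end of Y. With them left out, 4112 genes were called with siTAZ #1, 5212 with siTAZ #2 and 5112 between the siRNAs. With them fitted, the numbers were 2889, 4004 and 4020. Of the 10 genes, 8, 7 and 8 were called with them left out. The 10 genes together took 0.455% to 0.466% of all counts with siNTC, 0.810% to 0.861% with siTAZ #1 and 0.654% to 0.758% with siTAZ #2. Groups whose libraries did not overlap were common among all genes tested (64.3% for siTAZ #1 against siNTC, 71.4% for siTAZ #2 against siNTC and 65.6% between the siRNAs).

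**Figure D1:**
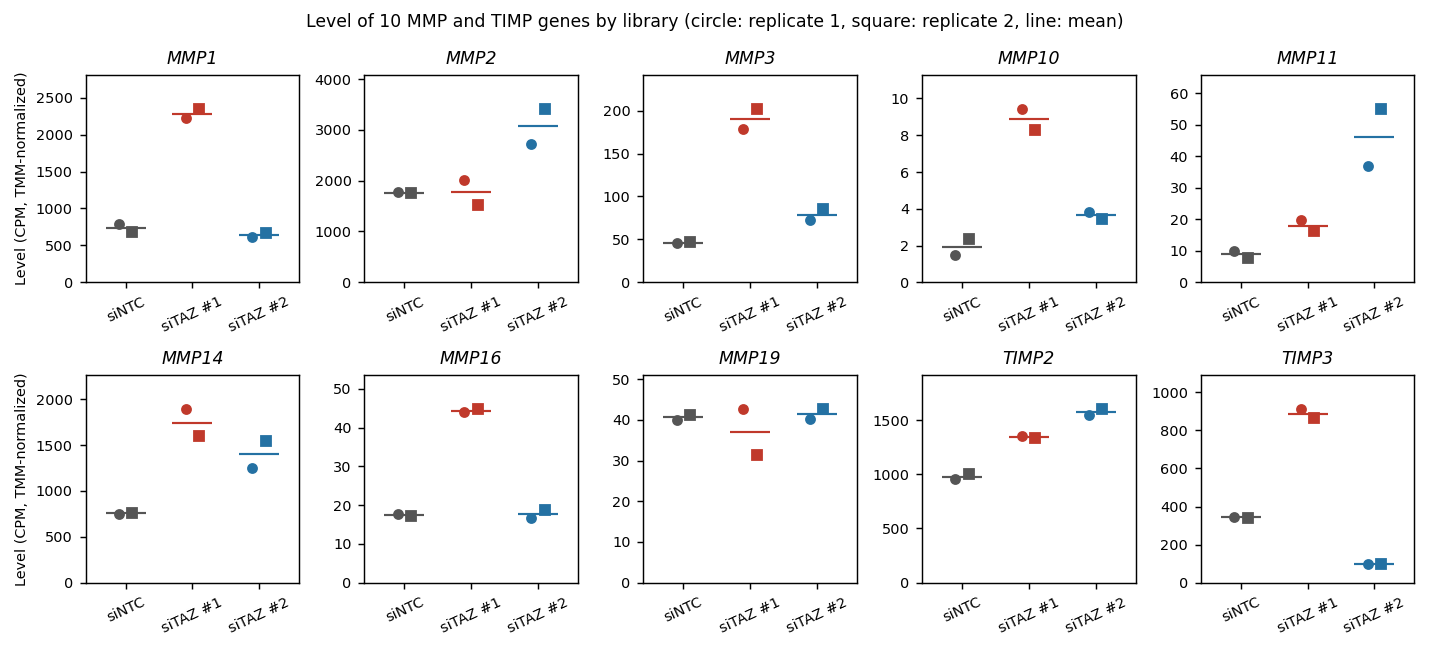
Level of each of the 10 MMP and TIMP genes in CPM (vertical axis, from 0, with a scale of its own in each panel) in the 2 libraries of siNTC, siTAZ #1 and siTAZ #2, with circles for replicate 1, squares for replicate 2 and a line at the mean. TIMP3 stands at 910 and 864 CPM with siTAZ #1 and at 95.1 and 97.1 CPM with siTAZ #2, on either side of the siNTC libraries at 347 and 340 CPM.

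Among the secreted enzymes, the collagenase MMP1 rose with siTAZ #1 and did not pass the test with siTAZ #2. MMP1 cuts the triple helix of fibrillar collagens. On hg19 its gene spans 102660132 to 102668891 of chromosome 11. MMP1 was at 783 and 685 CPM with siNTC, at 2223 and 2346 CPM with siTAZ #1, and at 618 and 672 CPM with siTAZ #2. The siTAZ #1 libraries lay far above the other 4, and the siTAZ #2 libraries lay a little below siNTC. MMP1 rose 3.11-fold with siTAZ #1 (log2 1.64, standard error 0.10, FDR 0.00087). With siTAZ #2 the log2 fold change was -0.19 (FDR 0.215, 95% interval -0.43 to 0.06). The siRNAs differed by 1.83 on the log2 scale (standard error 0.10, FDR 0.00057).

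The stromelysins MMP3 and MMP10 had their highest levels with siTAZ #1 and intermediate levels with siTAZ #2. MMP3 cuts proteoglycans, fibronectin and laminin and also activates the proenzyme of MMP1. It was at 46.3 and 46.4 CPM with siNTC, at 178 and 202 CPM with siTAZ #1, and at 72.9 and 85.1 CPM with siTAZ #2. The 3 groups did not overlap. MMP3 rose 4.10-fold with siTAZ #1 (log2 2.03, standard error 0.12, FDR 0.00080) and 1.70-fold with siTAZ #2 (log2 0.77, standard error 0.11, FDR 0.0058), and the siRNAs differed by 1.27 (FDR 0.0014). Once the genes with missing counts were left out, the rise with siTAZ #2 had an FDR of 0.00016. The rise with siTAZ #2 no longer passed without siNTC replicate 1 (FDR 0.0576) or without siNTC replicate 2 (FDR 0.0581).

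MMP10, a close relative of MMP3 with a similar range of substrates, was rare. It had 23 and 37 counts with siNTC, 146 and 271 with siTAZ #1, and 82 and 57 with siTAZ #2, or 1.46 and 2.34, 9.42 and 8.31, and 3.83 and 3.44 CPM. Here too the 3 groups did not overlap. MMP10 rose 4.67-fold with siTAZ #1 (log2 2.22, standard error 0.30, FDR 0.0065). Its log2 fold change with siTAZ #2 was 0.94 (standard error 0.30, FDR 0.0642), which did not pass, although it passed once the genes of the part with missing counts were left out (FDR 0.0439). The level was higher with siTAZ #1 than with siTAZ #2 by 1.28 (FDR 0.0215). Leaving out siNTC replicate 1 took the rise with siTAZ #1 to an FDR of 0.0505, and the difference between the siRNAs lost its call without siTAZ #2 replicate 1 (FDR 0.0903) or replicate 2 (FDR 0.119).

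MMP10, MMP1 and MMP3 are neighbours in a cluster of 9 MMP genes on chromosome 11 of hg19. MMP10 runs from 102641233 to 102651359 and MMP3 from 102706532 to 102714340, all 3 on the minus strand, with 8773 bases between MMP10 and MMP1 and 37641 bases between MMP1 and MMP3. The other 6 genes of the cluster, MMP7, MMP20, MMP27, MMP8, MMP12 and MMP13, did not pass the filter on low counts. MMP8, a collagenase, reached 35 counts, MMP12, the macrophage elastase, 22, and MMP13, another collagenase, 13. Each of these highest counts was in a siTAZ #1 library, but the other siTAZ #1 library had 3, 1 and 7 counts of the same genes. Exons of MMP1 share 223 bases, and those of MMP3 32 bases, with the pseudogene WTAPP1 on the opposite strand, and the strand setting of the counting is not given in the sources used here.

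**Figure D2:**
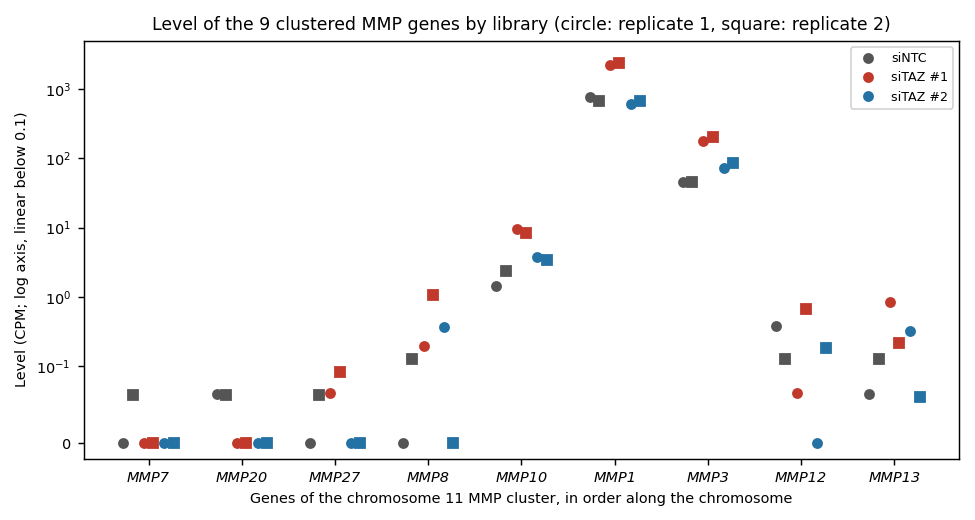
Level in CPM (vertical axis, logarithmic above 0.1 and linear below) of the 9 genes of the MMP cluster, in their order along chromosome 11, with circles for replicate 1 and squares for replicate 2. MMP10, MMP1 and MMP3 were measured in every library and were highest with siTAZ #1, while the other 6 genes never had more than 35 counts.

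MMP11, stromelysin-3, rose with both siRNAs and had its highest level under siTAZ #2. Unlike other stromelysins it is activated inside the cell by furin and cuts few matrix proteins. Its gene spans 24110413 to 24126503 of chromosome 22, before the part with missing counts. It was at 10.02 and 7.83 CPM with siNTC, at 19.7 and 16.3 CPM with siTAZ #1, and at 37.1 and 55.0 CPM with siTAZ #2, and no group overlapped another. MMP11 rose 5.16-fold with siTAZ #2 (log2 2.37, standard error 0.25, FDR 0.0023). Once the genes with missing counts were left out, its FDR was 1.0e-06 with siTAZ #2 and 0.0034 with siTAZ #1. With siTAZ #1 it rose 2.01-fold (log2 1.01, standard error 0.25, FDR 0.0383), which no longer passed when siNTC replicate 1 (FDR 0.120), siNTC replicate 2 (FDR 0.211) or siTAZ #2 replicate 2 (FDR 0.0501) was left out, in edgeR's exact test (FDR 0.138) or in a fit of 4 libraries (FDR 0.0538). The difference between the siRNAs was -1.36 (FDR 0.0111), and without siTAZ #2 replicate 2 it was -1.04 (FDR 0.0662).

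The gelatinase MMP2 rose with siTAZ #2 and not detectably with siTAZ #1. MMP2 degrades denatured collagen and basement membrane collagen. Its gene spans 55423612 to 55540603 of chromosome 16, and its exons share 174 bases with an unnamed annotated gene on the same strand. The level of MMP2 was 1775 and 1750 CPM with siNTC, 2021 and 1524 CPM with siTAZ #1, and 2729 and 3409 CPM with siTAZ #2. The siTAZ #1 libraries fell on either side of siNTC, and both siTAZ #2 libraries lay above the other 4. MMP2 rose 1.74-fold with siTAZ #2 (log2 0.80, standard error 0.17, FDR 0.0191), while the log2 fold change with siTAZ #1 was 0.01 (FDR 0.977, 95% interval -0.40 to 0.42). The difference between the siRNAs was -0.79 (FDR 0.0191). Without siNTC replicate 1, siNTC replicate 2 or siTAZ #2 replicate 2, the rise with siTAZ #2 had FDRs of 0.124, 0.133 and 0.115, and the difference between the siRNAs had FDRs of 0.0610, 0.0612 and 0.115. That difference also did not pass in edgeR's exact test (FDR 0.142) or in a fit of 4 libraries (FDR 0.0620). When the genes with missing counts were left out, the rise with siTAZ #2 had an FDR of 0.00021 and the difference 0.00018.

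Among the membrane-type enzymes, MMP14 rose with both siRNAs and MMP16 with siTAZ #1. MMP14 (MT1-MMP) cuts fibrillar collagen at the cell surface and, held together with TIMP2, activates the proenzyme of MMP2. Its gene spans 23305769 to 23318250 of chromosome 14. MMP14 was at 746 and 764 CPM with siNTC, at 1888 and 1598 CPM with siTAZ #1, and at 1255 and 1546 CPM with siTAZ #2. Every siTAZ library lay above both siNTC libraries, and the siTAZ #1 libraries lay above those of siTAZ #2. The rise was 2.31-fold with siTAZ #1 (log2 1.21, standard error 0.13, FDR 0.0038) and 1.86-fold with siTAZ #2 (log2 0.89, standard error 0.13, FDR 0.0064). Between the siRNAs, MMP14 differed by 0.32 (FDR 0.134, 95% interval -0.01 to 0.64). Leaving out the genes with missing counts gave the rises FDRs of 2.3e-06 with siTAZ #1 and 2.5e-05 with siTAZ #2. Both rises fell short of the threshold without siNTC replicate 1 (FDR 0.0591 and 0.0705) and without siNTC replicate 2 (FDR 0.0572 and 0.0661), and the difference passed without siTAZ #1 replicate 2 (FDR 0.0027).

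MMP16 (MT3-MMP), a membrane-anchored enzyme that can also activate the proenzyme of MMP2, has its gene at 89044239 to 89340254 of chromosome 8. The exons of MMP16 share 118 bases with an unnamed noncoding RNA gene on the opposite strand. MMP16 was at 17.7 and 17.3 CPM with siNTC, at 44 and 44.7 CPM with siTAZ #1, and at 16.7 and 18.7 CPM with siTAZ #2. The siTAZ #2 libraries fell on either side of siNTC. MMP16 rose 2.54-fold with siTAZ #1 (log2 1.34, standard error 0.13, FDR 0.0024), and with siTAZ #2 its log2 fold change was 0.02 (FDR 0.938, 95% interval -0.29 to 0.33). The difference of 1.32 between the siRNAs passed the test (FDR 0.0017).

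MMP19, a secreted enzyme that cuts basement membrane proteins, passed in none of the 3 comparisons. Its level was 40.1 and 41.2 CPM with siNTC, 42.6 and 31.4 CPM with siTAZ #1, and 40.2 and 42.6 CPM with siTAZ #2, so that the groups overlapped. The log2 fold changes were -0.14 with siTAZ #1 (95% interval -0.55 to 0.28) and 0.03 with siTAZ #2 (95% interval -0.39 to 0.44). Its exons share 821 bases with TMEM198B on the opposite strand, and TMEM198B was at 21.7 and 18.9 CPM with siNTC, 16.6 and 13.2 CPM with siTAZ #1, and 12.7 and 14.1 CPM with siTAZ #2.

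Of the inhibitors, TIMP3, which is bound to the matrix and inhibits ADAM and ADAMTS proteases as well as MMPs, moved in opposite directions with the siRNAs. The gene spans 33197691 to 33259028 of chromosome 22, within SYN3 on the opposite strand but with no shared exon bases. TIMP3 was at 347 and 340 CPM with siNTC, at 910 and 864 CPM with siTAZ #1, and at 95.1 and 97.1 CPM with siTAZ #2. Within each group the libraries were close, and the groups were far apart. It rose 2.58-fold with siTAZ #1 (log2 1.37, standard error 0.07, FDR 0.00068) and was 3.58-fold lower with siTAZ #2 (log2 -1.84, standard error 0.08, FDR 0.00037). The difference between the siRNAs was 3.21 on the log2 scale (standard error 0.08, FDR 0.00013), or 9.23-fold.

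TIMP2, which takes part in the activation of MMP2 at the cell surface besides inhibiting MMPs, rose with both siRNAs. The gene spans 76849059 to 76921469 of chromosome 17. Its exons share 224 bases with CEP295NL on the same strand and 367 bases with an unnamed noncoding RNA gene on the opposite strand. TIMP2 was at 957 and 1001 CPM with siNTC, at 1354 and 1331 CPM with siTAZ #1, and at 1552 and 1599 CPM with siTAZ #2. Both siTAZ groups lay above siNTC, siTAZ #2 the highest. TIMP2 rose 1.37-fold with siTAZ #1 (log2 0.46, standard error 0.08, FDR 0.0116) and 1.61-fold with siTAZ #2 (log2 0.69, standard error 0.08, FDR 0.0025). The siRNAs differed by -0.23 (FDR 0.0691, 95% interval -0.42 to -0.05). Leaving out the genes with missing counts gave the rise with siTAZ #1 an FDR of 0.0017. The rise with siTAZ #1 no longer passed without siNTC replicate 1 (FDR 0.134) or without siNTC replicate 2 (FDR 0.105), nor in edgeR's exact test (FDR 0.458), and the difference passed without siTAZ #1 replicate 1 (FDR 0.0388).

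**Figure D3:**
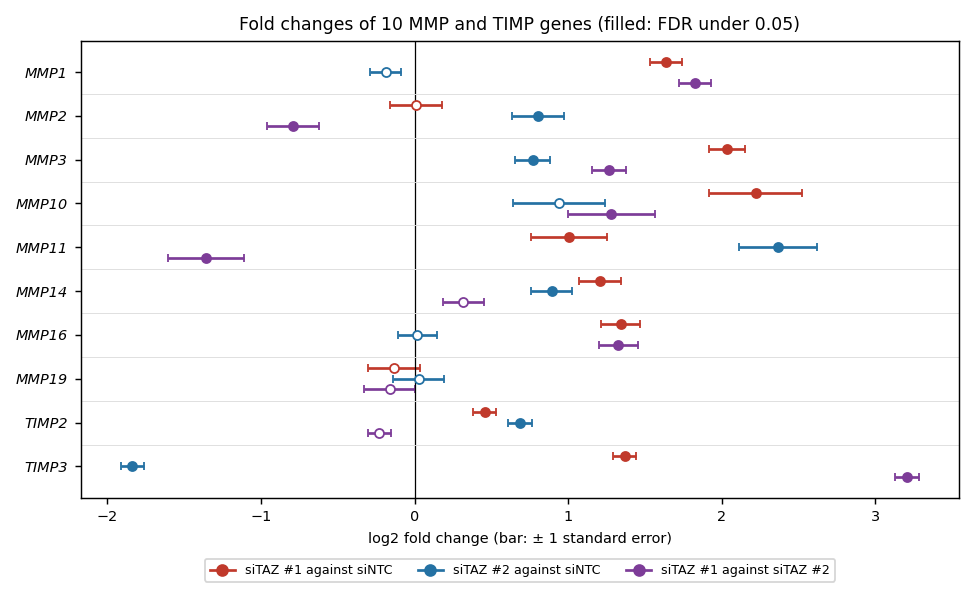
Log2 fold change (horizontal axis) of the 10 genes with siTAZ #1 against siNTC, siTAZ #2 against siNTC and siTAZ #1 against siTAZ #2, with bars of 1 standard error and filled points for an FDR under 0.05. TIMP3 has a point on either side of 0, at 1.37 and -1.84, and MMP1 and MMP16 are near 0 with siTAZ #2 (-0.19 and 0.02).

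The calls of MMP1, MMP3, MMP16 and TIMP3 with siTAZ #1, those of MMP11, TIMP2 and TIMP3 with siTAZ #2, and the differences between the siRNAs in MMP1, MMP3, MMP16 and TIMP3 passed under all 18 alternatives tried, the omission of each library included.

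Compared between genes, levels per kilobase of the canonical transcript with siNTC ran from MMP2 (502 CPM per kb) through MMP1 (373), TIMP2 (268), MMP14 (204), TIMP3 (74.8), MMP3 (25.5), MMP19 (12.6), MMP11 (3.95) and MMP16 (1.51) to MMP10 (1.08). No pair of neighbours in this order overlapped over the 2 siNTC libraries. With siTAZ #1, MMP1 stood at 1159 CPM per kb, above MMP2 at 504, and TIMP3 at 193. With siTAZ #2, MMP2 was at 874 CPM per kb and TIMP3 at 20.9.

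For each gene, the 2 genes with the most similar pattern over the 6 libraries were sought by the Pearson correlation of log2 CPM among 11529 genes. The correlations ran from 0.9899 to 0.9996, and the 6 points fall into the same 3 groups for every gene. TIMP3 was most like LAMC1, a laminin chain (0.9996), and E2F7 (0.9995). MMP1 was most like TNRC6C (0.9992) and HS3ST3B1 (0.9977), and MMP16 like LHFPL2 (0.9991) and FADS1 (0.9986). MMP3 was most like C2orf43 (0.9966) and DACH1 (0.9954), MMP10 like HEBP2 (0.9981) and HTR7 (0.9975), and MMP11 like C19orf10 (0.9978) and SLC35F2 (0.9977). For MMP14 these were LRIG1 (0.9975) and SLC20A1 (0.9957), for TIMP2 METTL7A (0.9988) and SEMA7A (0.9982), for MMP2 RHBDD2 (0.9945) and MRPL14 (0.9942), and for MMP19 PDHA2 (0.9913) and LOC389906 (0.9899).

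Of the other 17 MMP and TIMP genes of the list, 6 had enough counts to be tested. MMP15, a membrane-type enzyme, was at 3.68 and 5.11 CPM with siNTC, 10.3 and 9.17 CPM with siTAZ #1, and 10.1 and 14.4 CPM with siTAZ #2. It rose with both siRNAs (log2 1.15, FDR 0.0368, and 1.47, FDR 0.0133). MMP17, anchored at the membrane by a lipid, rose with siTAZ #2 (log2 1.07, FDR 0.0232), and its log2 fold change with siTAZ #1 was 0.74 (FDR 0.0810). MMP23B, MMP24, TIMP1 and TIMP4 passed in none of the 3 comparisons. The gelatinase MMP9 had at most 5 counts in any library.

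TIMP1, on the X chromosome, lay in the part with missing counts. It was at 728 and 715 CPM with siNTC, 1211 and 5.43 CPM with siTAZ #1, and 1113 and 1370 CPM with siTAZ #2. The value of 5.43 CPM belongs to siTAZ #1 replicate 2. Without that library TIMP1 rose with siTAZ #1 (log2 0.75, FDR 1.9e-05), taking the remaining library to vary as much as those of other groups, and with siTAZ #2 (log2 0.78, FDR 4.5e-07). MMP23A, a near copy of MMP23B with which it can share reads, had log2 fold changes of 1.36 (FDR 0.0240) and 2.09 (FDR 0.0047), against -0.56 (FDR 0.476) and 0.61 (FDR 0.389) for MMP23B, and both are uncertain.

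Genes listed under activation, inhibition and clearance of MMPs, with BSG and PCOLCE among them, were split. Of 12 tested, 6 rose and 1 fell with siTAZ #1, and 6 rose and 2 fell with siTAZ #2, with median log2 fold changes of 0.36 and 0.50. Of all genes tested, 10.8% were called higher and 9.78% lower with siTAZ #1, and 14.1% higher and 14.4% lower with siTAZ #2. The same shares stand beside the lists that follow. PLAT and PLAU encode the tissue-type and urokinase-type plasminogen activators, which make the plasmin that activates several MMPs. PLAT was at 125 and 122 CPM with siNTC, 1202 and 1279 CPM with siTAZ #1, and 511 and 661 CPM with siTAZ #2. It rose with both siRNAs (log2 3.33, FDR 0.00058, and 2.25, FDR 0.00064). PLAU rose as well (log2 1.49, FDR 0.00084, and 0.78, FDR 0.0026). Plasminogen itself (PLG) had at most 10 counts in a library. A2M, a broad protease trap, rose with both (log2 2.35, FDR 0.0254, and 1.81, FDR 0.0423) from 3.49 and 1.58 CPM. RECK, a membrane inhibitor of MMP2, MMP9 and MMP14, was at 59.0 and 59.5 CPM with siNTC, 63.6 and 75.5 CPM with siTAZ #1, and 23.2 and 22.2 CPM with siTAZ #2. It fell with siTAZ #2 (log2 -1.38, FDR 0.0015) and stood 0.23 from siNTC on the log2 scale with siTAZ #1 (FDR 0.245).

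Of the 7 tested ADAM and ADAMTS proteases that TIMP3 can inhibit, 3 rose and 1 fell with siTAZ #1, and 1 rose and 3 fell with siTAZ #2 (medians 0.27 and 0.07). The aggrecan-cutting ADAMTS5 was at 8.24 and 9.47 CPM with siNTC, 63.4 and 63.4 CPM with siTAZ #1, and 7.57 and 11.8 CPM with siTAZ #2. It rose with siTAZ #1 (log2 2.84, FDR 0.0017), and so did ADAMTS4, another aggrecanase (log2 2.44, FDR 0.0050). With siTAZ #2 their log2 fold changes were 0.13 (FDR 0.723) and 0.54 (FDR 0.231), and both were higher with siTAZ #1 than with siTAZ #2 (log2 difference 2.71, FDR 0.0014, and 1.90, FDR 0.0065). ADAMTS1, a protease of versican and aggrecan, fell with siTAZ #2 (log2 -1.61, FDR 0.00096) and stood 0.05 from siNTC with siTAZ #1 (FDR 0.794). ADAM12 fell with siTAZ #1 (log2 -0.999, FDR 0.0034) and with siTAZ #2 (log2 -0.68, FDR 0.0073).

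AP-1 and ETS factors, which are known to act on MMP promoters, went both ways. Of 11 tested, 3 rose and 2 fell with siTAZ #1, and 4 rose and 2 fell with siTAZ #2 (medians 0.29 and 0.38). The shares over all genes tested were 10.8% higher and 9.78% lower with siTAZ #1, and 14.1% higher and 14.4% lower with siTAZ #2. ETS2 was at 71.3 and 85.6 CPM with siNTC, 278 and 287 CPM with siTAZ #1, and 130 and 144 CPM with siTAZ #2, and rose with both siRNAs (log2 1.85, FDR 0.00087, and 0.80, FDR 0.0051). ETV4, a factor of the same ETS family, also rose with both (log2 1.15, FDR 0.0369, and 1.27, FDR 0.0214). The AP-1 member JUNB rose with siTAZ #2 (log2 2.01, FDR 0.0039), and its value with siTAZ #1 was 0.62 (FDR 0.140). FOSL2, a Fos-type AP-1 member, fell with siTAZ #1 (log2 -1.12, FDR 0.0035), with -0.40 under siTAZ #2 (FDR 0.0527).

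Among genes of interleukin-1 and TNF signals, which are known inducers of MMP1 and MMP3 in fibroblasts, 6 of 9 tested rose and none fell with siTAZ #1, and 1 rose and 3 fell with siTAZ #2 (medians 2.08 and -0.05). The cytokine gene IL1B had 9 and 15 counts with siNTC, 173 and 318 with siTAZ #1, and 2 and 1 with siTAZ #2. It rose with siTAZ #1 (log2 3.77, FDR 0.0021), fell with siTAZ #2 (FDR 0.0078) and differed between the siRNAs (FDR 0.00072), and no fold is given against the 3 counts of siTAZ #2. IL1A rose too (log2 3.56, FDR 0.0345), from 4 and 9 counts to 84 and 145, and had 1 and 10 counts with siTAZ #2. The chemokine gene IL8 (CXCL8) was at 10.7 and 9.85 CPM with siNTC, 71.6 and 135 CPM with siTAZ #1, and 10.4 CPM in both siTAZ #2 libraries. Its rise with siTAZ #1 was 3.34 on the log2 scale (FDR 0.0024), and IL6 rose by 2.67 (FDR 0.0183). With siTAZ #2 the log2 fold change of IL8 was 0.02 (FDR 0.972) and that of IL6 1.13 (FDR 0.153). TNF had 1 count in 1 of the 6 libraries. Whether these signals take part in the change of any MMP was not tested.

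Matrix proteins that MMPs cut were measured as well. Of 14 tested, 2 rose and 6 fell with siTAZ #1, and 6 rose and 6 fell with siTAZ #2 (medians -0.19 and -0.04). Decorin (DCN), a small collagen-binding proteoglycan, was at 720 and 749 CPM with siNTC, 502 and 426 CPM with siTAZ #1, and 254 and 233 CPM with siTAZ #2, and fell with both siRNAs (log2 -0.66, FDR 0.0103, and -1.59, FDR 0.00072). COL1A2, a chain of type I collagen, fell with both (log2 -1.01, FDR 0.0071, and -0.77, FDR 0.0121). LAMB1, a laminin chain, rose with both (log2 0.76, FDR 0.0052, and 1.56, FDR 0.00064). Elastin (ELN) fell with siTAZ #1 (log2 -0.71, FDR 0.0166) and rose with siTAZ #2 (log2 1.16, FDR 0.0027). LAMC1 rose with siTAZ #1 (log2 0.48, FDR 0.0089) and fell with siTAZ #2 (log2 -0.67, FDR 0.0023). It was named as the gene most like TIMP3 over these same libraries, so that its directions follow from that choice. Decorin, COL1A1, COL1A2, COL3A1 and FN1 are also in the list of fibroblast markers, whose sum was lower in every siTAZ library than in siNTC although PDGFRA, PDGFRB and THY1 were called lower with neither siRNA, and the part of that shift in the results was not tested. In bulk RNA, fewer cells of a type and less RNA per cell cannot be told apart.

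**Figure D4:**
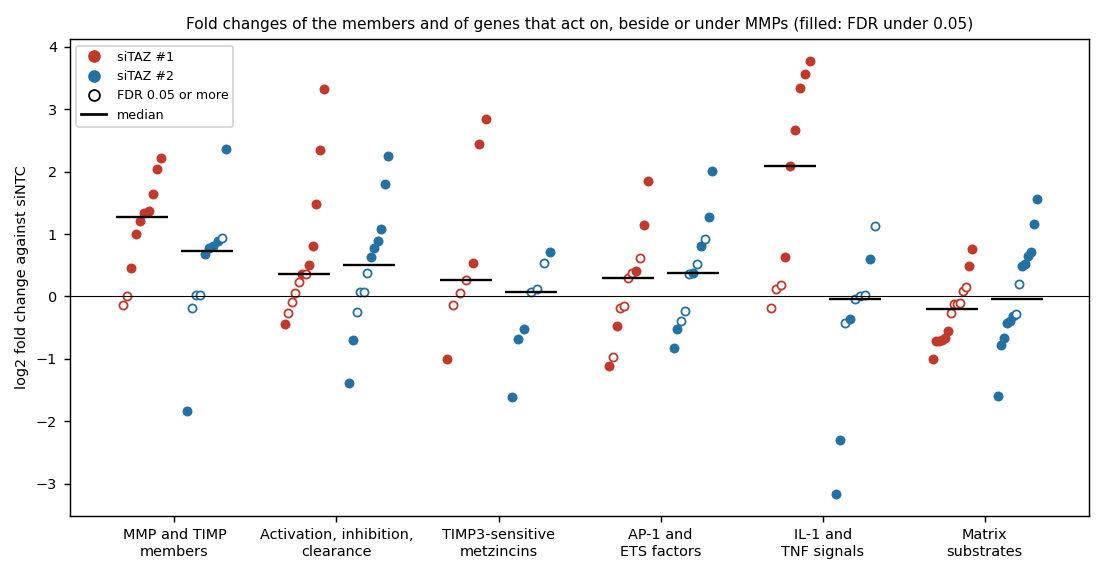
Log2 fold change against siNTC (vertical axis) of the 10 MMP and TIMP genes and of the tested genes of 5 related lists, with siTAZ #1 and siTAZ #2 side by side, filled points for an FDR under 0.05 and a line at the median. The median of the interleukin-1 and TNF genes is 2.08 with siTAZ #1 and -0.05 with siTAZ #2, and that of the 10 genes is 1.27 and 0.73.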

How the data were processed

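RNA sequencing covered 6 libraries of HFL-1 cells, 2 each for siNTC, siTAZ #1 and siTAZ #2. The authors aligned the Ion Proton reads with TMAP to hg19 and made counts per gene with HTSeq (version 0.6.1 in the submitters' processing notes). The deposited values are raw read counts without normalization. The strand setting and counting mode are not given in the sources used here. Of 23368 entries, 13 that read as dates instead of symbols were left out (0.0458% to 0.0506% of the counts). Gene positions were found on GRCh37 for 21477 entries, 1921 of them through an older symbol. Transcript lengths and overlaps came from GENCODE.

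Tests were run in R 4.3.3 with edgeR 4.0.16: filterByExpr by group, TMM normalization, and the quasi-likelihood test, with all 6 libraries fitted together. Adjustment followed Benjamini and Hochberg for the 14053 tested genes, and an FDR under 0.05 was called. Standard errors and 95% intervals follow from the test statistic. The comparisons were siTAZ #1 with siNTC, siTAZ #2 with siNTC, and siTAZ #1 with siTAZ #2. The submitters call the replicates biological, and the methods state that the transfections were done in duplicate. The p-values are therefore set against the spread between duplicate transfections of a line. With 2 libraries per group, the spread of a gene is estimated over all groups and genes. That estimate also carries the near-missing counts of siTAZ #1 replicate 2: the common dispersion was 0.0807 with those genes fitted and 0.0164 without them. The steps were tested on simulated data drawn with less spread between libraries than the common dispersion of these data, an easier setting.

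The alternatives were DESeq2 1.42.0, edgeR's exact test on 4 libraries, RLE, upper-quartile and library-total scaling, an FDR of 0.1, no filter, a minimum mean count of 50, a fit restricted to 4 libraries, omission of each library, omission of the genes between RANGAP1 and the end of Y, and a replicate block. A crossed replicate block was chosen after seeing the data. Named genes were the 10 genes, WWTR1 and, from each related list, at most 4 genes called in any comparison, by the largest fold change against siNTC, besides any other MMP or TIMP and the genes of most similar pattern with a mean count of at least 50. PLG, TNF, TMEM198B and the marker genes given by value are outside this rule and were chosen after their values were seen. BSG and PCOLCE are named only as members of a list. The 10 genes and all lists were chosen with earlier results of these data known.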

Additional observations from a re-analysis of the deposited data

Results flagged for a closer look

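For 7 of the 10 genes, the direct test found a different level with siTAZ #1 than with siTAZ #2 although both siRNAs target TAZ. On the log2 scale, the change with siTAZ #1 exceeded that with siTAZ #2 by 3.21 in TIMP3, 1.82 in MMP1, 1.32 in MMP16, 1.28 in MMP10 and 1.27 in MMP3. For MMP11 the difference was -1.36 and for MMP2 -0.79, with the higher level under siTAZ #2. WWTR1 itself was lower with siTAZ #1 by -0.70 (FDR 0.0050, and 0.236 in edgeR's exact test), and its part in these differences was not tested. Of all genes tested, 28.6% were called in the same comparison.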

How the results depend on the processing

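Of 540 values of the 10 genes under alternatives, 485 kept their direction and their side of the threshold, 28 lost a call, 11 gained a call and 16 turned in sign, all 16 of values that were not called. Values under the FDR of 0.1 come from the main fit and could neither lose a call nor turn in sign. The log2 fold change of MMP2 with siTAZ #1 became -0.0221 with upper-quartile scaling, -0.0147 without a filter, -0.0083 with the crossed replicate block, -0.0085 without the genes between RANGAP1 and the end of Y, -0.0049 in the fit of 4 libraries and in the exact test, and between -0.211 and 0.198 with a library left out. That of MMP16 with siTAZ #2 became -0.0052 without a filter and ran from -0.0929 to 0.0964 with a library left out. With a library left out, MMP19 ran from -0.371 to 0.0672 with siTAZ #1, from -0.0408 to 0.0654 with siTAZ #2 and from -0.392 to 0.0451 between the siRNAs. In edgeR's exact test TIMP2 and MMP11 lost their calls with siTAZ #1 (FDR 0.458 and 0.138), as MMP2 did between the siRNAs (FDR 0.142). In the fit of 4 libraries MMP11 with siTAZ #1 (FDR 0.0538) and MMP2 between the siRNAs (FDR 0.0620) lost theirs. TIMP2 gained a call between the siRNAs in 7 alternatives, 1 of them the FDR of 0.1, and MMP14 with DESeq2 (FDR 0.0325). The causes were not tested.

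Of all genes, 2889 were called with siTAZ #1, against 1061 in the exact test and 556 to 5100 with a library left out, with 585 and 556 without siNTC replicates 1 and 2 and 5100 without siTAZ #1 replicate 1. With siTAZ #2, 4004 were called, against 6097 in the fit of 4 libraries, 6424 in the exact test and 1328 to 6042 with a library left out, with 1403 and 1328 without siNTC replicates 1 and 2, 6031 and 6042 without siTAZ #1 replicates 1 and 2, and 1932 and 1819 without siTAZ #2 replicates 1 and 2. Between the siRNAs 4020 were called, against 1498 in the exact test and 1797 to 5659 with a library left out, with 2089 and 1797 without siTAZ #2 replicates 1 and 2. Of the 10 genes, 4 to 8 were called with siTAZ #1, 3 to 6 with siTAZ #2 and 4 to 8 between the siRNAs when a library was left out, where a group of 1 library is taken to vary like the others. The lowest were 4 and 5 with siTAZ #1 without siNTC replicates 1 and 2, 3 with siTAZ #2 without either siNTC library, and 4 between the siRNAs without siTAZ #2 replicate 2. The difference in WWTR1 between the siRNAs lost its call in the exact test (-0.70, FDR 0.236).

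The sources used here do not say whether replicates of the same number share more than the number. Deviations from the group means correlated at -0.01 between siNTC and siTAZ #1, 0.01 between siNTC and siTAZ #2 and -0.18 between the siRNAs, over 13476 genes. With the replicate block, 1691 genes were called with siTAZ #1, 2749 with siTAZ #2 and 2869 between the siRNAs, and MMP11 with siTAZ #1 (FDR 0.0851) and MMP10 between the siRNAs (FDR 0.0516) lost their calls. The crossed block, chosen after seeing the data, gave 2634, 3765 and 3893 genes.

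MMP10, with 23 counts in its lowest library, was the least precisely measured of the 10 genes by its standard errors, up to 0.30.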

Other observations

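FURIN and IL1R1 were chosen after their values were seen. FURIN encodes the protease that activates MMP11 and MMP14 inside the cell. It was at 137 and 133 CPM with siNTC, 105 and 94.1 CPM with siTAZ #1, and 239 and 258 CPM with siTAZ #2. It fell with siTAZ #1 (log2 -0.44, FDR 0.0226) and rose with siTAZ #2 (log2 0.88, FDR 0.0020), a difference of -1.32 (FDR 0.00085). IL1R1, the signalling receptor for interleukin-1, was at 121 and 128 CPM with siNTC, 517 and 537 CPM with siTAZ #1, and 23.6 and 26.7 CPM with siTAZ #2. It rose with siTAZ #1 (log2 2.08, FDR 0.00062) and fell with siTAZ #2 (log2 -2.31, FDR 0.00037), and the siRNAs differed by 4.39 (FDR 0.00013).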
